A study of Mus musculus with 4 samples.

Results

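Rab GTPases, sorting nexins (Snx) and vacuolar protein sorting (Vps) proteins move membrane and cargo between the Golgi, the plasma membrane, endosomes and lysosomes. The genes described here are the protein-coding genes of the deposited table whose symbol starts with Rab, Snx or Vps followed by a digit. There are 119 of them among the table's 13881 genes: 57 Rab genes (48 GTPases and 9 genes named after a Rab that they bind or regulate), 28 Snx genes and 34 Vps genes. Other members of these families, Vps25, Rab4b and Rab43 among them, were not analysed here.

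A Rab protein is a switch: bound to GTP it sits on 1 kind of membrane and recruits motors, tethers and sorting machinery, and after GTP hydrolysis it returns to the cytosol. Exchange factors load the GTP, TBC-domain proteins speed its hydrolysis, and GDI and escort proteins carry Rabs between membranes. Sorting nexins hold a PX domain that binds phosphoinositides of endosomes, and many bend the membrane with a BAR domain. Vps genes, named after yeast mutants that missort vacuolar proteins, encode the retromer that returns receptors from endosomes, the ESCRT proteins that sort receptors for degradation, and the HOPS, CORVET and GARP tethers. In neural progenitors this traffic sets how long growth factor and Notch receptors stay at the surface.

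The cells were neural progenitors of the C57bl/6 strain, taken from forebrains at embryonic day 14 and expanded in a medium with EGF and FGF-2 (20 ng/ml of each), 2% B27 lacking vitamin A and 2 mM L-glutamine. In the shRybp group (2 libraries) an shRNA delivered by lentivirus targeted Rybp, a subunit of variant Polycomb repressive complex 1. The control group (2 libraries) has an shRNA that the labels name only as ctrl, and the hairpins, the selection of infected cells and the time after infection were not stated in the labels. No label says that libraries of 1 group came from separate cultures or embryos, so p-values cover only the spread among these 4 libraries, which can be technical.

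Each library held between 14355308 and 17598873 counts. Rybp itself had an FPKM (a level scaled for gene length and for the size of the library) of 4.43 and 3.95 in control 1 and 2 and of 3.01 and 2.66 in shRybp 1 and 2, which is 65.8% of control (log2 fold change -0.60, adjusted p = 0.0017 by edgeR). Of 10 progenitor genes, 9 reached a mean of 1 FPKM, with Nes, Vim and Sox2 at 98.3 FPKM or more in every library. Of these 9, 5 fell and 2 rose in shRybp (median log2 fold change -0.34), with Slc1a3 (-0.67) and Fabp7 (-0.61) lowest and Nes (0.67) and Vim (0.27) higher, and the summed level of the 10 was 3375 and 3112 FPKM in the controls and 2649.8 and 2562 FPKM in shRybp. Of 8 microglial genes the table held 2, whose summed level was between 0.173 and 0.967 FPKM. Astrocyte genes differed between the groups: all 7 tested of 8 listed fell in shRybp (median log2 fold change -1.11), and the summed level of the 8 was 589 and 602 FPKM in the controls and 231 and 250.4 FPKM in shRybp. Of 7 oligodendrocyte lineage genes tested of 8 listed, 2 fell, Sox10 (log2 fold change -1.99) and Pdgfra (-1.26), and none rose (median -0.22). Olig1 and Olig2 were at 267 FPKM or more in every library and did not pass the test, the summed level of the 8 was 783 and 809 FPKM in the controls and 736 and 771 FPKM in shRybp, and the myelin gene Mog was at 0 in control 1 and shRybp 2 and at 1.54 and 1.88 FPKM in control 2 and shRybp 1. Of 5 neuronal genes tested of 8 listed, Dcx (log2 fold change -1.22) and Snap25 (-0.46) fell and none rose (median -0.35), and the 6 that the table holds had a summed level of 73.5 and 73.6 FPKM in the controls and 70.1 and 64.2 FPKM in shRybp. Of 8 endothelial and mural genes 1 was tested, Acta2, which rose (log2 fold change 0.69), and the 3 that the table holds had a summed level of 1.86 and 1.87 FPKM in the controls and 3.12 and 2.65 FPKM in shRybp. The part of these cell type genes in the results below was not tested.

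More members of each family fell than rose in shRybp. The families were chosen with earlier results of these data known, so these counts and the medians describe the fall but do not test it. Here a gene fell or rose only if it passed edgeR's quasi-likelihood test of shRybp against control at an adjusted p of 0.05, and a log2 fold change below 0 means a lower level in shRybp than in control. A mean of 1 FPKM over the 4 libraries was needed for the test, which left 12062 genes, among them 113 of the 119 members. Of 51 Rab genes tested, 19 fell (37.3%) and 2 rose (3.92%). Of 28 Snx genes, 11 fell (39.3%) and 2 rose (7.14%). Of 34 Vps genes, 10 fell (29.4%) and 1 rose (2.94%). The background is 16.7% of all genes tested that fell and 16.3% that rose. Where libraries of the groups are said below not to overlap, this describes 2 values against 2 and adds no support to the test. How often it holds over all genes was not counted. Without shRybp replicate 2 the count of Vps genes that fell was 5.

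The falls were small. The median log2 fold change was -0.13 for Rab genes, -0.15 for Snx genes and -0.11 for Vps genes, beside 0.00 for all genes tested. The estimate was below 0 for 33 of 51 Rab, 20 of 28 Snx and 29 of 34 Vps genes, beside 5974 of all 12062 genes. Among the members that fell, the median size of the log2 change was 0.35 for Rab, 0.49 for Snx and 0.28 for Vps genes, and 0.43 for all 2013 genes that fell. A fall of 1.5-fold or more was seen in 4 Rab genes, 4 Snx genes and no Vps gene, and only Rab11b and Snx22 fell by 2-fold or more. In these bulk libraries fewer cells of a type and less RNA per cell cannot be told apart.

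**Figure D1:**
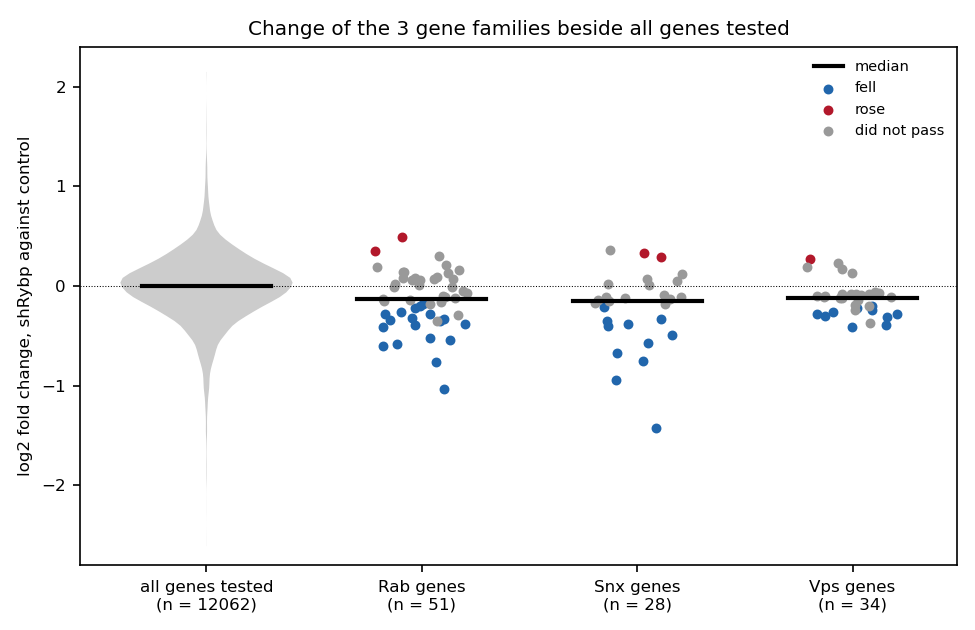
Log2 fold change of shRybp against control (vertical axis) for all 12062 genes tested, drawn as a density, and for each tested Rab, Snx and Vps gene, drawn as a point coloured by its call, with the median as a black line. The medians of the families lie at -0.13, -0.15 and -0.11 and that of all genes at 0.00, and the lowest points are Snx22 and Rab11b.

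Family medians lay below the control mean in each shRybp library. The families were chosen with earlier results of these data known, so values by library or length describe the shift but do not test it. Relative to the control mean, the median Rab gene was at a log2 ratio of -0.15 in shRybp 1 and -0.14 in shRybp 2, the median Snx gene at -0.15 and -0.19, and the median Vps gene at -0.14 and -0.10. The control medians on this scale were 0.01 and -0.01 for Rab, 0.02 and -0.02 for Snx and -0.02 and 0.02 for Vps genes, and the median of all genes lay at 0.00 in every library. Control values mirror each other because each gene is set relative to the mean of the controls. As a share of all counts, the 57 Rab genes took 0.554% and 0.540% in the controls and 0.512% and 0.515% in shRybp, so the shRybp libraries lay below both controls. The shift was present at each gene length: across 4 equal bins of protein-coding genes by length of gene model, the median log2 fold change went from 0.04 in the shortest to -0.03 in the longest, and that of the members lay between -0.11 and -0.20.

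Sequence upstream of the members was searched for letters known to be bound by regulators of these organelles or by a partner of Rybp. The windows run from 250 bases before to 50 after a gene's start, from RefSeq on GRCm38.p6, and 90 of the 119 members have 1 or more (115 windows in all). The letters TCACGTGA, the core of the CLEAR element through which TFEB and its relatives switch on lysosomal genes, are their own reverse complement and were in 6.09% of the members' windows (7 of 115), beside 0.974% of all 32851 windows and 1.93% of the 11321 windows of tested genes. Of the 6 genes that hold them, Rab5a, Rab21 and Vps33a fell, and Rab24, Vps16 and Vps26a did not pass the test. Among all 113 members tested 40 fell (35.4%), beside 16.7% of all genes tested. The stretches that follow are shown because they carry these letters (in capitals) upstream of members of the endosomal and HOPS machinery, and each is written 5′ to 3′ on the strand of its gene. They belong to Rab5a (chr17:53479088-53479195, plus strand, letters 96 to 89 bases before the start), Rab21 (chr10:115315592-115315672, minus strand, 31 to 24 bases before), Vps33a (chr5:123573016-123573094, minus strand, 29 to 22 bases before, with a further copy downstream), Vps16 (chr2:130424251-130424319, plus strand, 19 to 12 bases before) and Vps26a (chr10:62486931-62487038, minus strand, 183 to 176 bases before 1 of its starts).
Rab5a: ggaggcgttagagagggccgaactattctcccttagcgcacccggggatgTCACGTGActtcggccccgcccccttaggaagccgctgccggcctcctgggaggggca
Rab21: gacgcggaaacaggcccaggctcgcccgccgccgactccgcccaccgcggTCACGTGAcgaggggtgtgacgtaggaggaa
Vps33a: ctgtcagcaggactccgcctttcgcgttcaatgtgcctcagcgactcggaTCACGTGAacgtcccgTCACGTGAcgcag
Vps16: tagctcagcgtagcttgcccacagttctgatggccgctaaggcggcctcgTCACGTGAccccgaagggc
Vps26a: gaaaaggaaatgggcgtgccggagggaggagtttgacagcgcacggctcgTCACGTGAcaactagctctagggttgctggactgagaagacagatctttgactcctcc
In Vps33a the letters stand at both places within 1 short stretch, and in Rab21 and Vps16 they lie close to the start.

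Letters bound by other factors were searched in the same windows. The YY1 core AAGATGGC (either strand), bound by the factor that gave Rybp part of its name, was in 6.09% of the members' windows and in 4.72% of those of tested genes. The NRF1 core GCATGCGC (either strand) was in 4.35% and 5.55%, and the cyclic AMP response element TGACGTCA (its own reverse complement) in 1.74% and 3.22%. These shares describe letters in a window and not sites that are bound. Of the member genes that hold the letters, 2 of 7 fell for YY1, 2 of 5 for NRF1 and 1 of 2 for the cyclic AMP response element. Vps33a also holds the YY1 and NRF1 letters, and Rab5a those of the cyclic AMP response element. Whether any of the letters go with a fall was not tested.

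Among Rab GTPases of the Golgi and of transport between endoplasmic reticulum (ER) and Golgi, 7 of 11 tested fell (63.6%) and none rose. The background for this and each further group of members is 16.7% of all genes tested that fell and 16.3% that rose. Rab6a (ENSMUSG00000030704, mm10 chromosome 7, 100607410 to 100641268, plus strand), which directs retrograde transport at the Golgi, had 138 and 131 FPKM in the controls and 104 and 103 FPKM in shRybp. Both shRybp libraries lay below both controls, by a log2 fold change of -0.41 (with an SE of 0.06, 95% interval from -0.55 to -0.28, adjusted p = 0.00031 by edgeR). Rab33b, a Golgi Rab that also binds the autophagy protein Atg16l1, had 9.76 and 8.92 FPKM in the controls and 6.37 and 6.23 FPKM in shRybp (log2 fold change -0.61 with an SE of 0.09, adjusted p = 0.00030 by edgeR).

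Rab2b, a Rab of ER to Golgi transport, went from 9.67 and 9.96 FPKM to 6.93 and 6.49 FPKM (log2 fold change -0.58 with an SE of 0.09, adjusted p = 0.00029 by edgeR). Rab30, another Golgi Rab, was at 2.55 and 2.90 FPKM in the controls and at 2.08 and 1.75 FPKM in shRybp (log2 fold change -0.54 with an SE of 0.11, adjusted p = 0.0023 by edgeR). In both genes the shRybp libraries lay below both controls. The others that fell were Rab33a (log2 fold change -0.52), Rab6b (-0.22) and Rab2a (-0.20). Rab6a and Rab2a are the more abundant genes of their pairs, with 87.8% to 89.5% of summed Rab6 FPKM and 87.9% to 91.1% of summed Rab2 FPKM over the 4 libraries. The call of Rab33a was lost without control replicate 2 (adjusted p = 0.16 by edgeR) and without shRybp replicate 2 (0.23), and those of Rab6b and Rab2a in 8 of 16 other analyses each, among them those without control replicate 1 (adjusted p = 0.14 and 0.31 by edgeR), shRybp replicate 1 (0.16 and 0.071) and shRybp replicate 2 (0.089 and 0.13).

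The Rab1 genes, which act in the first step from ER to Golgi, had estimates above 0. Rab1a was at 70.4 and 69.7 FPKM in the controls and at 79.5 and 78.4 FPKM in shRybp, and missed the threshold (log2 fold change 0.14, 95% interval from 0.01 to 0.26, adjusted p = 0.090 by edgeR). The groups did not overlap, which is not a test, and Rab1a passed in 4 of 16 other analyses, among them that with library totals in place of TMM. Rab1b had a log2 fold change of 0.16 (adjusted p = 0.090 by edgeR), Rab36 of 0.14 and Rab18 of -0.07.

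Of 6 early endosomal Rabs, all with estimates below 0, 3 fell (50%, beside 16.7% of all genes tested). Rab5a (ENSMUSG00000017831, mm10 chromosome 17, 53479234 to 53507680), the switch of early endosome fusion, had 22.6 and 20.2 FPKM in the controls and 17.6 and 17.2 FPKM in shRybp. The shRybp libraries were the lower ones (log2 fold change -0.34 with an SE of 0.07, 95% interval from -0.50 to -0.18, adjusted p = 0.0037 by edgeR). Rab21, which takes part in integrin uptake, fell by 0.33 and Rab5b by 0.28 on the log2 scale, the latter a call lost without control replicate 1 (adjusted p = 0.061 by edgeR). Rab5c, with 66.6% to 70.0% of summed Rab5 FPKM the most abundant of its paralogues, missed the threshold (log2 fold change -0.14, adjusted p = 0.077 by edgeR). Rab31, among the most abundant members with 192, 197, 176 and 181 FPKM in control 1, control 2, shRybp 1 and shRybp 2, did not pass either (log2 fold change -0.16, adjusted p = 0.059 by edgeR), nor did Rab22a (-0.13).

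Of 6 recycling Rabs, 3 fell (50%, beside 16.7% of all genes tested), and Rab11b had the largest change of any Rab gene. Rab11b (ENSMUSG00000077450, mm10 chromosome 17, 33742484 to 33760530, minus strand), which returns cargo from recycling endosomes to the surface, had 16.2 and 16.3 FPKM in the controls and 8.21 and 8.05 FPKM in shRybp. The libraries of each group lay close together and the level in shRybp was 48.8% of control (log2 fold change -1.03 with an SE of 0.07, 95% interval from -1.19 to -0.88, adjusted p = 6.8e-07 by edgeR). The processed pseudogene Rab11b-ps2 fell as well, from 13.5 and 14.4 FPKM to 8.82 and 8.47 FPKM (log2 fold change -0.72, adjusted p = 0.0032 by edgeR). Reads can be shared between such copies, and Gm17251 overlaps Rab11b on the opposite strand by 539 bases, so the value of Rab11b is uncertain to that extent.

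Rab11a, the closest paralogue, fell less far. It had 36.2 and 31.9 FPKM in the controls and 27.1 and 26.3 FPKM in shRybp (log2 fold change -0.39 with an SE of 0.08, adjusted p = 0.0022 by edgeR). Of the summed FPKM of both genes, Rab11b made up 31.0% and 33.8% in the controls and 23.2% and 23.4% in shRybp. Rab14, which acts between Golgi and endosomes, fell by 0.26 on the log2 scale. Rab4a, which serves the fast recycling route, had a log2 fold change of -0.01, Rab35 of 0.08 and Rab15 of 0.21, and none of these passed.

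Of the genes named after a Rab they bind or regulate, 8 were tested. Of these, 2 fell (25%, beside 16.7% of all genes tested) and 1 rose (12.5%, beside 16.3%). Both falls were among the 4 Rab11 family interacting proteins tested, which link Rab11 membranes to motors. Rab11fip4 went from 1.87 and 2.14 FPKM to 1.19 and 1.23 FPKM, with both shRybp libraries below the controls (log2 fold change -0.77 with an SE of 0.13, adjusted p = 0.00073 by edgeR), and Rab11fip2 fell by 0.35 on the log2 scale, a call lost in DESeq2 (adjusted p = 0.070). Rab11fip5 (log2 fold change -0.29, adjusted p = 0.067 by edgeR) and Rab11fip3 (-0.15) did not pass. Rab5if, named as an interactor of Rab5, rose from 20.5 and 18.6 FPKM to 25.1 and 26.0 FPKM (log2 fold change 0.35 with an SE of 0.08, adjusted p = 0.0047 by edgeR). The Rab3 GTPase-activating subunits Rab3gap1 (-0.12) and Rab3gap2 (0.07) and the Rab8 exchange factor Rab3ip (0.06) did not pass.

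Of 8 late endosomal and lysosomal Rabs tested, 2 fell (25%, beside 16.7% of all genes tested) and none rose. Rab7, the main Rab of late endosomes, was among the most abundant members and lay at 165 and 164 FPKM in the controls and 180 and 174 FPKM in shRybp (log2 fold change 0.07, 95% interval from -0.06 to 0.20, adjusted p = 0.42 by edgeR). Its interval leaves out a fall of the size seen in Rab5a or Rab6a. Gm5577 overlaps Rab7 on the opposite strand by 6366 bases. Reads can also be shared with the processed pseudogene Rab7-ps1 (mean of 16.0 FPKM, log2 fold change -0.13), so the value of Rab7 is uncertain to that extent. Rab9, which returns mannose 6-phosphate receptors to the Golgi, fell by 0.39 and Rab39b, a Rab linked to X-linked intellectual disability, by 0.28 on the log2 scale. The call of Rab9 was lost without control replicate 1 (adjusted p = 0.064 by edgeR), and that of Rab39b in 8 of 16 other analyses, among them those without control replicate 1 (adjusted p = 0.17 by edgeR), shRybp replicate 1 (0.13) and shRybp replicate 2 (0.14). Those that did not pass were Rab32 (log2 fold change -0.10), Rab12 (-0.10), Rab29 (0.02), Rab24 (0.09) and Rab38 (0.31).

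Of 8 exocytic Rabs tested, 2 fell (25%, beside 16.7% of all genes tested) and 1 rose (12.5%, beside 16.3%). Rab3b, a Rab of regulated secretion, was at 64.8 and 65.2 FPKM in the controls and at 92.1 and 96.0 FPKM in shRybp. It stood above both controls in both shRybp libraries (log2 fold change 0.50 with an SE of 0.06, 95% interval from 0.37 to 0.62, adjusted p = 5.5e-05 by edgeR) and had 89.1% to 92.4% of summed Rab3 FPKM. Rab10, which serves polarised delivery to the surface, fell by 0.32 and Rab8b by 0.18 on the log2 scale. The call of Rab8b was lost in 11 of 16 other analyses, among them those without any 1 of the 4 libraries (adjusted p from 0.061 to 0.23 by edgeR). Rab8a, the Rab of transport to the cilium and the surface, had 16.4 and 15.9 FPKM in the controls and 17.4 and 17.7 FPKM in shRybp and missed the threshold (log2 fold change 0.08, 95% interval from -0.06 to 0.23, adjusted p = 0.38 by edgeR).

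Rab26 (log2 fold change -0.35, adjusted p = 0.12 by edgeR), Rab13 (-0.05), Rab3d (-0.01) and Rab3a (0.07) did not pass. None of the 4 Rabs in the group of cilium and other roles passed, with log2 fold changes between -0.18 for Rab40c and 0.20 for Rab34. Rab23, a negative regulator of Hedgehog signalling, had 0.01. The Rab genes below a mean of 1 FPKM, which were not tested, were Rab39, Rab27a, Rab40b, Rab3c, Rab27b and Rab3il1. Rab3c had 0.716 and 0.670 FPKM in the controls and 0.289 and 0.273 FPKM in shRybp.

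**Figure D2:**
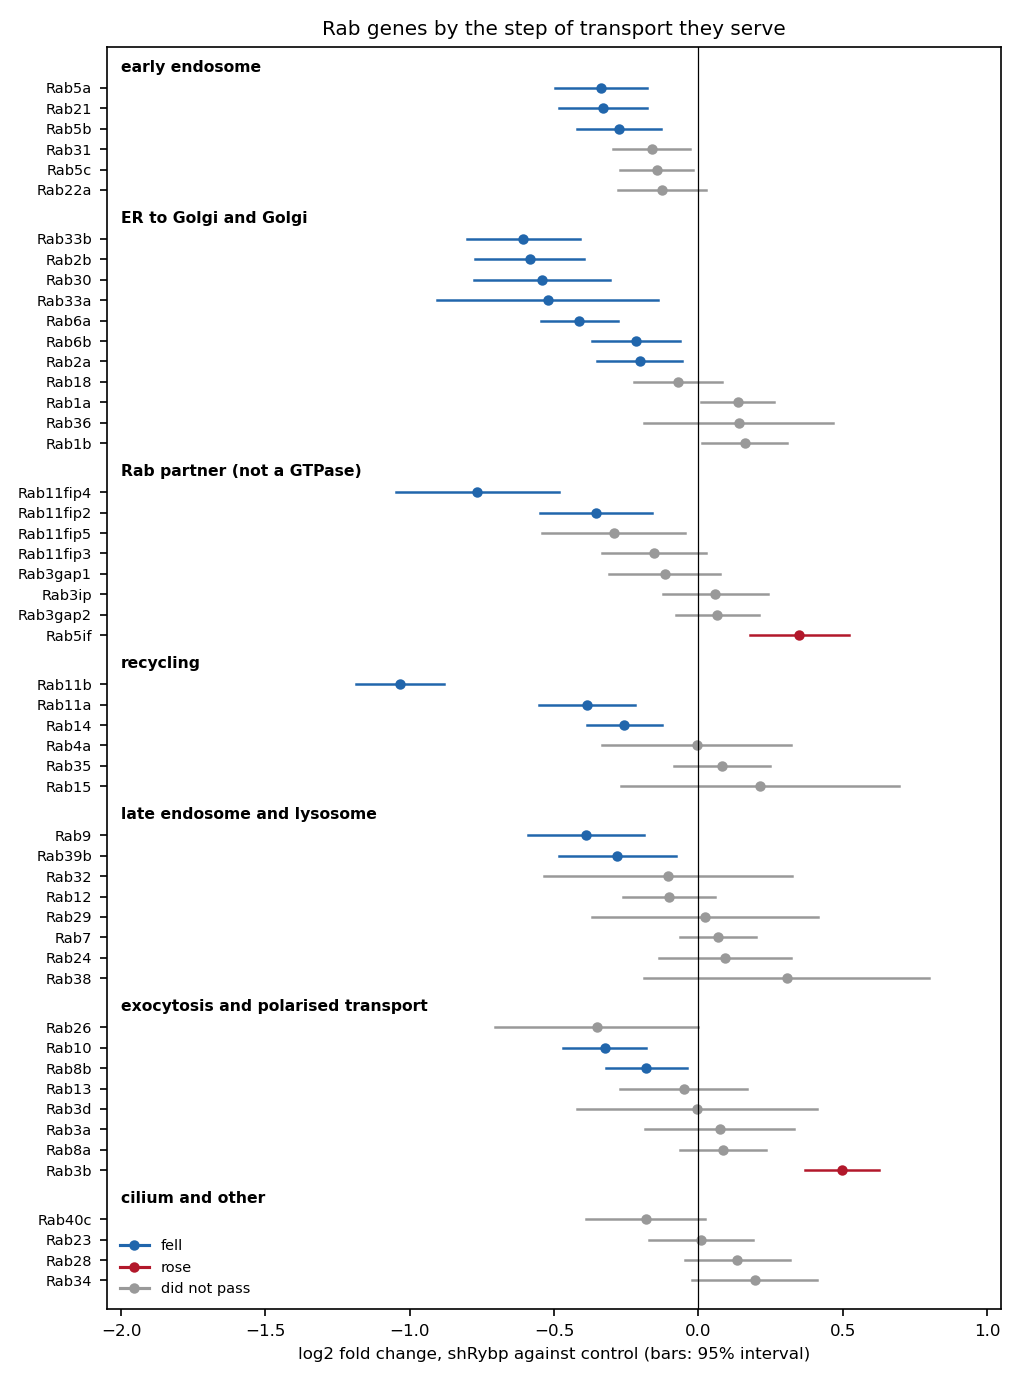
Log2 fold change of shRybp against control (horizontal axis) with its 95% interval for each of the 51 Rab genes tested, grouped by step of transport and coloured by call. Of the Golgi group 7 of 11 genes lie below 0 and passed the test, Rab11b stands apart at -1.03, and the genes that rose are Rab3b and Rab5if.

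Sorting nexins with an RGS domain are large proteins that tether membranes. They were grouped here with their relative Snx19, and 3 of these 4 genes fell (median log2 fold change -0.57). That is 75%, beside 16.7% of all genes tested. Snx13 and Snx25 had the largest falls of the family after Snx22. Snx13 (ENSMUSG00000020590, mm10 chromosome 12, 35047186 to 35147479, plus strand) had 13.1 and 12.3 FPKM in the controls and 7.41 and 6.21 FPKM in shRybp, 52.1% of control (log2 fold change -0.94 with an SE of 0.09, 95% interval from -1.13 to -0.75, adjusted p = 8.3e-06 by edgeR). Snx25 (ENSMUSG00000038291, mm10 chromosome 8, 46033261 to 46152159, minus strand) went from 20.8 and 19.9 FPKM to 12.7 and 12.01 FPKM (log2 fold change -0.75 with an SE of 0.07, adjusted p = 1.2e-05 by edgeR). In both genes the groups stood well apart. Snx14, mutated in a childhood cerebellar ataxia, fell by 0.38 on the log2 scale, and Snx19 did not pass (log2 fold change -0.09, 95% interval from -0.25 to 0.06, adjusted p = 0.36 by edgeR).

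The 5 SNX-BAR proteins that work with the retromer had estimates below 0, and 2 fell (40%, beside 16.7% of all genes tested). Snx2 was at 25.4 and 25.5 FPKM in the controls and at 18.7 and 16.4 FPKM in shRybp, lower in both (log2 fold change -0.57 with an SE of 0.08, adjusted p = 0.00027 by edgeR). Its paralogue Snx1, which can take its place in the coat, had a log2 fold change of -0.18 and did not pass (adjusted p = 0.071 by edgeR). Snx2 made up 53.1% and 55.6% of the summed FPKM of both genes in the controls and 49.3% and 45.7% in shRybp. The partner subunits Snx6 (log2 fold change -0.17, adjusted p = 0.082 by edgeR) and Snx5 (-0.12) did not pass. Snx32, a relative of Snx5 and Snx6, fell by 0.40 on the log2 scale, but it overlaps the abundant gene Cfl1 on the opposite strand by 2967 bases, and whether counting used strand is not stated. The call of Snx32 was lost in 7 other analyses, among them those without control replicate 2 (adjusted p = 0.20 by edgeR) and shRybp replicate 1 (0.21).

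Other SNX-BAR proteins went both ways, with 2 of 7 that fell and 2 that rose. Each is 28.6%, beside 16.7% and 16.3% of all genes tested. Snx4 (log2 fold change -0.35) and Snx30 (-0.33), which form a dimer in endosomal recycling, fell. The call of Snx30 was lost in 7 other analyses, among them those without control replicate 2 (adjusted p = 0.082 by edgeR), shRybp replicate 1 (0.055) and shRybp replicate 2 (0.11). Snx9, which works with dynamin in endocytosis, rose from 18.7 and 18.4 FPKM to 23.1 and 23.4 FPKM (log2 fold change 0.29 with an SE of 0.07, adjusted p = 0.0062 by edgeR). Its relative Snx18 rose from 13.3 and 11.7 FPKM to 16.4 and 15.9 FPKM (log2 fold change 0.33 with an SE of 0.08, adjusted p = 0.0077 by edgeR). In both, each shRybp library lay above both controls, though without control replicate 2 Snx18 no longer passed (adjusted p = 0.069 by edgeR). Snx33, the other member of that subgroup, did not pass (log2 fold change -0.14, 95% interval from -0.34 to 0.05), nor did Snx7 (0.36) and Snx8 (0.02).

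Among nexins with a PX domain and few other parts, 3 of 10 fell (30%, beside 16.7% of all genes tested). Snx22 (ENSMUSG00000039452, mm10 chromosome 9, 66065176 to 66069719, minus strand) had the largest fall of all members but a low level: 2.61 and 2.47 FPKM in the controls and 1.15 and 0.80 FPKM in shRybp, from 133, 114, 48 and 38 counts. This is 37.3% of control (log2 fold change -1.42 with an SE of 0.21, 95% interval from -1.88 to -0.97, adjusted p = 0.00026 by edgeR). It overlaps Ppib, which had a mean of 84.3 FPKM, on the opposite strand by 1448 bases, and Ppib missed the threshold (log2 fold change -0.01).

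Snx12 (ENSMUSG00000046032, mm10 chromosome X, 101097786 to 101222563, minus strand) went from 16.6 and 16.1 FPKM to 11.0 and 10.1 FPKM, lower in both shRybp libraries (log2 fold change -0.67 with an SE of 0.09, adjusted p = 0.00011 by edgeR). Its close relative Snx3, the retromer adaptor for the Wnt carrier Wls, was among the most abundant nexins with 145 and 134 FPKM in the controls and 129 and 136 FPKM in shRybp. The groups overlapped and it did not pass (log2 fold change -0.11, 95% interval from -0.25 to 0.03, adjusted p = 0.22 by edgeR). Snx29 fell by 0.49 on the log2 scale, a call lost without shRybp replicate 1 (adjusted p = 0.054 by edgeR) and without shRybp replicate 2 (0.064). The others, Snx10, Snx11, Snx15, Snx16, Snx21 and Snx24, had log2 fold changes between -0.15 and 0.12 and did not pass. Of the FERM-domain nexins, Snx27, the retromer adaptor for receptors with a PDZ-binding tail, fell by 0.21 on the log2 scale and Snx17 did not pass (0.05). The call of Snx27 was lost without control replicate 1 (adjusted p = 0.065 by edgeR), control replicate 2 (0.053) and shRybp replicate 2 (0.16).

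**Figure D3:**
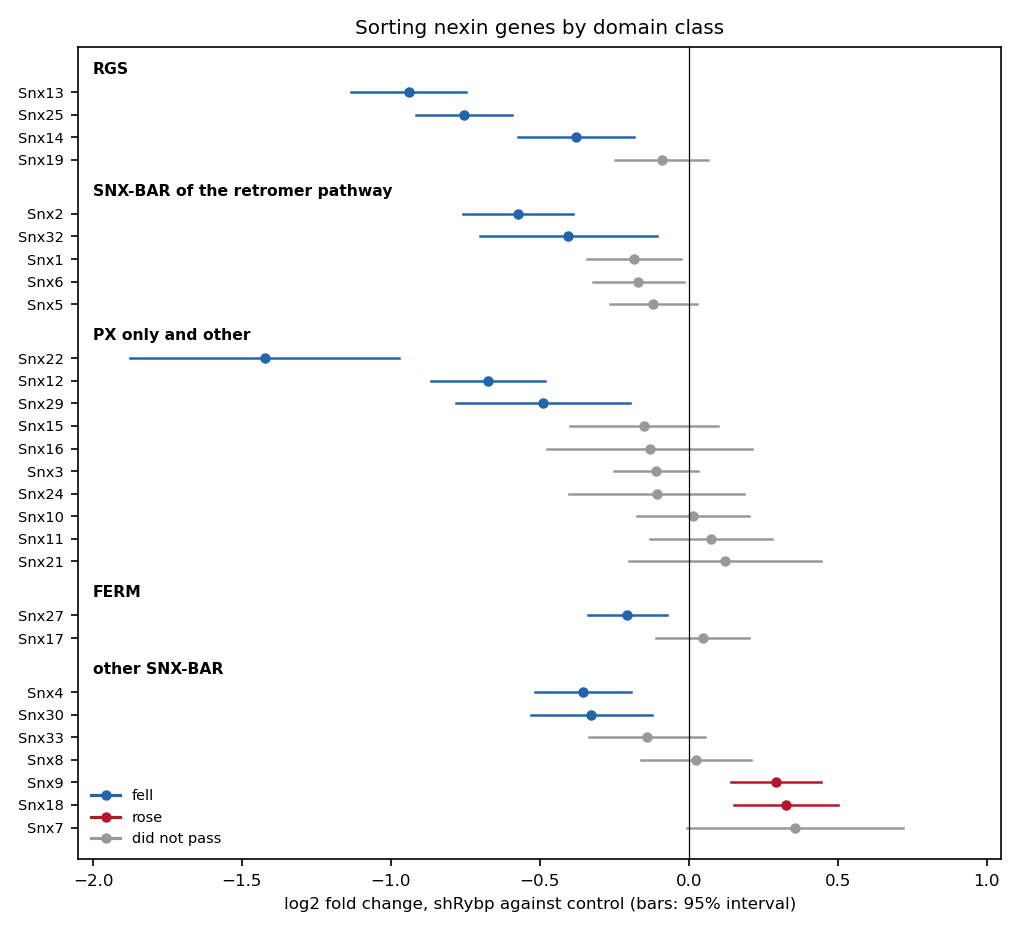
Log2 fold change of shRybp against control (horizontal axis) with its 95% interval for each of the 28 sorting nexin genes, grouped by domain class and coloured by call. The class labelled RGS, in which Snx19 was placed as a relative, holds 3 falls of 4. Snx22 lies lowest at -1.42 with a wide interval, and Snx9 and Snx18 are the genes that rose.

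The retromer and the related retriever showed small changes. The retromer core is made of Vps35, Vps29 and either Vps26a or Vps26b. Vps35 was at 27.7 and 26.5 FPKM in the controls and at 25.1 and 23.3 FPKM in shRybp, and Vps29 at 13.5 and 12.9 FPKM and at 11.4 and 10.5 FPKM. Each fell, Vps35 by 0.20 (with an SE of 0.06, adjusted p = 0.030 by edgeR) and Vps29 by 0.30 (with an SE of 0.08, adjusted p = 0.0085 by edgeR) on the log2 scale, with both shRybp libraries below both controls. Vps26a, with 24.2 and 22.3 FPKM in the controls and 22.1 and 23.0 FPKM in shRybp, overlapped between the groups (log2 fold change -0.08, 95% interval from -0.25 to 0.09, adjusted p = 0.46 by edgeR).

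Vps26b had 21.1 FPKM in each control and 20.0 and 20.2 FPKM in shRybp (log2 fold change -0.11, 95% interval from -0.24 to 0.03, adjusted p = 0.22 by edgeR). The call of Vps29 was lost without shRybp replicate 2 (adjusted p = 0.099 by edgeR), and that of Vps35 in 6 of 16 other analyses, among them those without control replicate 1 (adjusted p = 0.17 by edgeR) and shRybp replicate 2 (0.22). In the retriever, Vps35l fell by 0.22 on the log2 scale, a call lost without control replicate 2 (adjusted p = 0.092 by edgeR), shRybp replicate 1 (0.085) and shRybp replicate 2 (0.069), and Vps26c did not pass (log2 fold change 0.23, adjusted p = 0.064 by edgeR).

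The Vps13 genes encode very large proteins that carry lipids between membranes, and 2 of the 4 fell (50%, beside 16.7% of all genes tested). Vps13d (ENSMUSG00000020220, mm10 chromosome 4, 144972622 to 145195005, minus strand) had 5.04 and 5.61 FPKM in the controls and 4.35 and 3.98 FPKM in shRybp (log2 fold change -0.39 with an SE of 0.07, adjusted p = 0.0014 by edgeR). Vps13b, the Cohen syndrome gene, went from 2.49 and 3.01 FPKM to 2.14 and 2.09 FPKM, again with no overlap (log2 fold change -0.41 with an SE of 0.10, adjusted p = 0.0055 by edgeR). Vps13b overlaps Cox6c on the opposite strand, and Cox6c also fell (log2 fold change -0.24, adjusted p = 0.011 by edgeR). The call of Vps13b was lost in the 3 fits of limma on FPKM (highest adjusted p = 0.094). Vps13c (log2 fold change -0.24, adjusted p = 0.11 by edgeR) and Vps13a (-0.10) did not pass.

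In the ESCRT machinery under Vps names, 2 of 8 genes fell and 1 rose, beside 16.7% and 16.3% of all genes tested. Vps37a, an ESCRT-I subunit, had 9.51 and 9.91 FPKM in the controls and 8.09 and 7.99 FPKM in shRybp (log2 fold change -0.31 with an SE of 0.07, adjusted p = 0.0043 by edgeR). Vps4a, 1 of the ATPases that take ESCRT-III apart, had 42.1 and 37.5 FPKM in the controls and 33.2 and 34.1 FPKM in shRybp (log2 fold change -0.28 with an SE of 0.07, adjusted p = 0.012 by edgeR). The ESCRT-II subunit Vps36 rose, from 26.6 and 25.2 FPKM to 32.5 and 31.7 FPKM (log2 fold change 0.27 with an SE of 0.07, adjusted p = 0.0069 by edgeR). None of these overlapped between the groups, and the call of Vps36 was lost without control replicate 2 (adjusted p = 0.055 by edgeR). That of Vps4a was lost without control replicate 1 (adjusted p = 0.13 by edgeR) and shRybp replicate 1 (0.055). The paralogues Vps37b (log2 fold change -0.12), Vps37c (-0.09), Vps37d (-0.37) and Vps4b (-0.06) and the ESCRT-I subunit Vps28 (-0.08) did not pass. Vps37a overlaps Cnot7, which had a mean of 15.8 FPKM, on the opposite strand by 4065 bases. Cnot7 did not pass (log2 fold change -0.09), and the value of Vps37a is uncertain to that extent.

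Of 8 genes grouped under the HOPS and CORVET tethers, which dock late and early endosomes, Vps41 fell by 0.28 and Vps33a by 0.26 on the log2 scale. These 2 are 25% of the group, beside 16.7% of all genes tested that fell. The group includes Vps33b (log2 fold change 0.17), a relative of Vps33a that is not counted as a subunit of these tethers. The call of Vps33a was lost without control replicate 1 (adjusted p = 0.055 by edgeR) and shRybp replicate 2 (0.085). The other genes of this group did not pass, with log2 fold changes from -0.10 for Vps39 to 0.19 for Vps16. Vps11 (-0.07) and Vps18 (-0.08) were among those in between. None of the 5 GARP and EARP tether genes passed (log2 fold changes from -0.20 for Vps53 to 0.13 for Vps54). Vps45, which assists SNARE assembly on endosomes, fell by 0.24 on the log2 scale, a call lost in 9 of 16 other analyses, among them those without control replicate 1 (adjusted p = 0.21 by edgeR), shRybp replicate 1 (0.088) and shRybp replicate 2 (0.14). Vps9d1 (-0.11) did not pass, nor did Vps72 (-0.12), which despite its name is a subunit of a chromatin complex that exchanges histones.

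**Figure D4:**
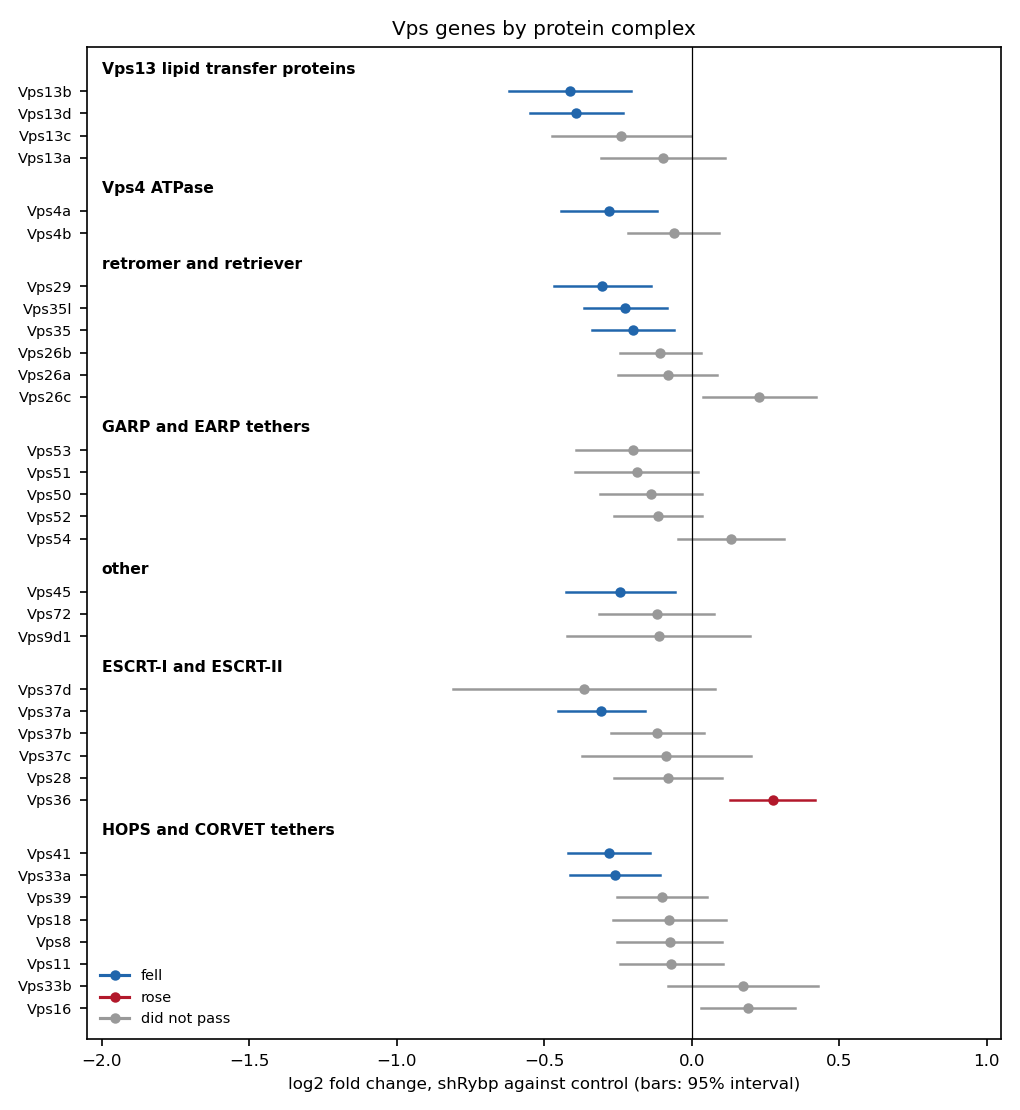
Log2 fold change of shRybp against control (horizontal axis) with its 95% interval for each of the 34 Vps genes, grouped by complex and coloured by call. The points run from -0.41 for Vps13b to 0.27 for Vps36, and the retromer core genes lie between -0.30 and -0.08.

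**Figure D5:**
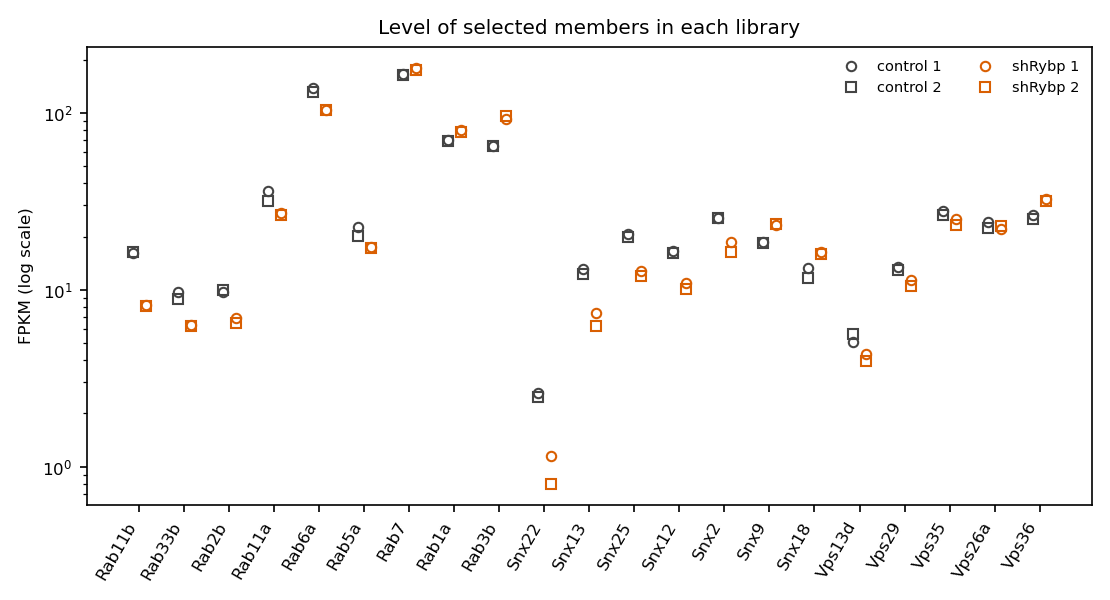
FPKM on a log scale (vertical axis) of 21 members in each library, controls in grey and shRybp in orange, with circles for replicate 1 and squares for replicate 2. Rab11b, Snx22 and Snx13 show the widest gaps between groups, and Rab3b, Snx9, Snx18 and Vps36 lie higher in shRybp.

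Genes that control Rabs were counted against the same background of 16.7% that fell and 16.3% that rose. Of 8 genes for GDI, escort and prenylation of Rabs, 3 fell (37.5%) and none rose (median log2 fold change -0.02). Rabac1, a membrane receptor for Rab and GDI complexes, fell by 0.29 on the log2 scale. Among 39 exchange factors 6 fell (15.4%) and 3 rose (7.69%), shares no higher than the background (median -0.03), with the largest falls in Als2cl (-0.70) and the Rab5 exchange factor Rin2 (-0.68) and the largest rises in Dennd2a (0.32) and Trappc1 (0.23).

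TBC-domain proteins, which switch Rabs off, changed in both directions, with 12 of 35 that fell (34.3%) and 7 that rose (20.0%; median -0.18). Tbc1d12 (-0.74) and Tbc1d4 (-0.66), the latter known from insulin-dependent glucose uptake, fell furthest. Tbc1d1, the paralogue of Tbc1d4, rose by 0.64 and Tbc1d8 by 0.45. Tbc1d4 had 7.63 and 8.04 FPKM in the controls and 4.85 and 5.28 FPKM in shRybp, and Tbc1d1 had 17.3 and 16.6 FPKM in the controls and 27.02 and 26.9 FPKM in shRybp, so these paralogues went opposite ways. Of 39 Rab effectors 9 fell (23.1%) and 3 rose (7.69%; median -0.10), with the endosomal adaptor Appl2 (-1.08) and Rims2 (-0.52) lowest and the Rab kinase Lrrk2 (0.44) and the Golgi protein Gorasp2 (0.43) highest. Evi5 is in both of these lists and fell by 0.40.

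In the machinery around sorting nexins and Vps proteins, receptors carried by the retromer rose more often than they fell. Of 15 tested receptors that are known retromer cargo, 10 rose (66.7%) and 2 fell (13.3%; median log2 fold change 0.23). Of all genes tested, 16.3% rose and 16.7% fell. Igf2r, the mannose 6-phosphate receptor that also binds IGF2, had 7.16 and 8.15 FPKM in the controls and 12.6 and 14.2 FPKM in shRybp and rose by 0.77 on the log2 scale. The falls were the glucose transporter Slc2a1 (-0.60) and Lrp1 (-0.46). The number of receptors that rose was 6 without shRybp replicate 1, 6 without shRybp replicate 2 and 5 in DESeq2, and the list's median was between 0.14 and 0.31 in all 16 other analyses.

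Of 18 endosomal SNARE genes 6 fell (33.3%) and none rose (median -0.18), with Snap29 (-0.61) and Vamp4 (-0.51) lowest. The background for this and the next lists is 16.7% of all genes tested that fell and 16.3% that rose. ESCRT genes without a Vps name had 5 falls (21.7%) and 1 rise (4.35%) among 23 (median -0.06), with Chmp3 (-1.32) and Chmp2b (-0.41) lowest and Chmp1a higher (0.24). Chmp3, an ESCRT-III subunit, went from 29.3 and 27.1 FPKM to 12.04 and 11.2 FPKM. The WASH and CCC complexes, which build actin on endosomes and work with the retriever, had 4 falls of 15 (26.7%) and no rise (median -0.08), led by Commd1 (-0.45) and Commd4 (-0.32). Genes of class III PI3-kinase and PI3P turnover, which make and remove the lipid that PX domains bind, had 5 falls (26.3%) and 1 rise (5.26%) of 19 (median 0.03), with Mtmr1 (-0.74) and Atg14 (-0.62) lowest and Vac14 higher (0.23).

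Arf-type GTPases and coats had medians nearer to 0 than the Rab, Snx and Vps genes. So did most lists above, among them GDI and escort genes (-0.02), exchange factors (-0.03), PI3P genes (0.03) and ESCRT genes without a Vps name (-0.06). Of 25 Arf, Arl and Sar GTPases 5 fell and 3 rose (median 0.02), with Arl4a (-0.62) and Arl8a (-0.45) lowest and Arl2 (0.43) and Arl16 (0.37) highest. Of 46 vesicle coat genes 6 fell (13.0%) and 9 rose (19.6%; median 0.07), with Ap3b2 (-0.91) and Clta (-0.56) lowest and the COPII genes Sec24d (0.80) and Sec31a (0.52) highest. The Arf and coat lists stand beside the background of 16.7% that fell and 16.3% that rose. The number of coat genes that rose was 5 without control replicate 1 and 16 with library totals in place of TMM. No test of the difference between these lists and the Rab, Snx and Vps genes was made.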

How the data were processed

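RNA of 4 libraries (2 control, 2 shRybp) was analysed from a table in which the authors deposited whole-number read counts per gene and FPKM values, with mm10 as build per the submitters' processing notes. The deposited FPKM equal count over gene length with 1 factor per library. For the aligner, the counter and the strand setting, nothing is given in the sources used here. The lowest gene total in the table is 40 counts. The members and gene lists were chosen with earlier results of these data known.

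Counts of genes with a mean of at least 1 FPKM (12062 of 13881) were tested with edgeR 4.0.16 in R 4.3.3 (TMM, quasi-likelihood, two-sided, Benjamini-Hochberg over all genes tested, adjusted p 0.05). The fit was run on simulated data in which 200 genes were changed by 1.5-fold or more. Smaller changes, such as most falls of the members, were not simulated. No list was tested as a set. Replicates differed by more than counting noise (chi-square per degree of freedom 5.18 for control, 4.37 for shRybp) and were kept apart. The 16 alternatives used other scalings, filters, DESeq2 1.42.0, limma 3.58.1 on log2(FPKM + 1), a replicate block, and fits without each library. Every member that passed is named. Values per library are given for the 5 largest falls and rises of each family, the retromer core and 6 compartment Rabs, and for other lists the 2 largest falls and rises are named, except for some genes and 1 list that are not reported here. Further genes and values were added after they were seen. Strands and overlaps came from GENCODE M21, in which 28 members overlap a gene of the table on the opposite strand.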

Additional observations from a re-analysis of the deposited data

How the results depend on the processing

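The 45 members that passed kept their direction in each of the 16 alternatives that tested them. The call held in every alternative that tested the gene for 11 of 19 Rab, 7 of 11 Snx and 3 of 10 Vps genes that fell, and for 2 of 2, 1 of 2 and 0 of 1 that rose. The family medians stayed below 0 throughout. Under library totals without TMM, where the median of all genes was 0.04, 4 Rab and 3 Vps genes rose and the medians were -0.0905 (Rab), -0.1097 (Snx) and -0.0794 (Vps). In limma on log2(FPKM + 1) they were -0.0817, -0.0943 and -0.0772, with 7 Snx and 6 Vps falls, and with 0.1 in place of 1 the medians of Rab and Snx genes were -0.0887 and -0.1058, again with 7 and 6 falls. Quantile normalization also gave 7 Snx and 6 Vps falls, and the robust fit 2 Vps rises. The Rab median was -0.1415 with no filter and -0.1714 with a mean FPKM of at least 5. Leaving out 1 library at a time gave Rab medians from -0.1572 to -0.1383, Snx medians from -0.2075 to -0.122 and Vps medians from -0.175 to -0.1019. In each of these fits fewer Vps genes fell than with all 4 libraries. Without control replicate 2 the rise of Vps36 was lost, and the Vps genes called as rises there were others. Fits without 1 library take the spread of the lone library of a group from the other group. Across the alternatives the falls were 1 to 3 for GDI and escort genes, 3 to 9 for exchange factors, 9 to 17 for TBC-domain genes, 4 to 11 for effectors, 2 to 8 for ESCRT genes, 1 to 6 for WASH and CCC genes, 3 to 7 for PI3P genes and 4 to 9 for SNAREs, and the sign of the median changed for the GDI, exchange factor, PI3P and Arf lists. Of the 2 largest falls and rises named from these, the other lists and the cell type genes, Rabac1, Trappc1, Rims2, Chmp1a, Commd1, Commd4, Vac14, Slc2a1, Arl16, Arl2, Fabp7, Vim, Snap25 and Acta2 lost their call in 1 or more alternatives, and none reversed. Igf2r and Evi5 are not among these genes and were not followed in this way.

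With the replicate block, 24 Rab, 13 Snx and 10 Vps genes fell and 4 Rab, 3 Snx and 3 Vps genes rose, and over all genes tested 2652 fell and 2676 rose. The labels do not say what the replicate numbers share, and the differences between replicates 1 and 2 correlated by 0.119 between the groups, so this pairing is by number only. At this depth Snx22, at 38 to 133 counts, was the least precise of the members described per library.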

Other observations

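Other transcripts with Rab names are not protein-coding. Rab10os had a log2 fold change of 0.27 (adjusted p = 0.071 by edgeR) and Rab26os of 0.46 (adjusted p = 0.057 by edgeR), both with estimates opposite in sign to those of the genes they overlap, Rab10 (-0.32) and Rab26 (-0.35), and neither passed the test. Without strand information reads of such pairs cannot be told apart.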
